A study of Mus musculus with 36 samples.

Results

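The genes described here encode the protein subunits of oxidative phosphorylation and were chosen by symbol alone from a table of raw read counts per gene. The symbols begin with mt-Nd, mt-Co, mt-Atp or mt-Cyt for the mitochondrial genome, and with Ndufa, Ndufb, Ndufc, Ndufs, Ndufv, Uqcr, Atp5, Cox4i, Cox5, Cox6, Cox7 or Cox8, or are Sdha to Sdhd and Cyc1, for the nuclear genome. Assembly factors (Ndufaf) and 11 pseudogene or noncoding rows with such symbols were left out. The rule found 99 members among 49585 gene IDs, 86 nuclear and 13 mitochondrial, and it used no measured value. The nuclear members comprised 36 genes of complex I, 4 of complex II, 9 of complex III, 20 of complex IV and 17 of complex V. The mitochondrial members comprised 7 genes of complex I, 1 of complex III, 3 of complex IV and 2 of complex V.

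RNA came from neoplastic cells sorted by their EGFP signal out of 36 mouse lung tumours driven by EML4-ALK, a fusion of the microtubule protein EML4 with the kinase ALK that exists in variants differing in how much of EML4 they keep. The 4 groups of 9 tumours carry the labels Variant 1 Neo, Variant 1 Setd2, Variant 3 Neo and Variant 3 Setd2, where Neo stands for the guide sgNeo (Setd2-proficient) and Setd2 for the guide sgSetd2 (Setd2-deficient). Setd2 encodes the enzyme that trimethylates lysine 36 of histone H3 over transcribed genes. All groups thus share the EML4-ALK driver and the sort for EGFP; for age, sex, strain, time after initiation and the delivery of fusion and guides the sources used here give nothing. The titles carry 12 codes, 3 per group with 3 tumours each, and what a code stands for is not labelled. Counts were therefore summed per code, n is 3 codes per group, and a p-value here reflects only how far codes of a group spread, which may be technical.

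Oxidative phosphorylation passes electrons from NADH (complex I) and succinate (complex II) through complexes III and IV to oxygen, and the proton gradient built on the way drives the ATP synthase, complex V. Complex II is encoded in the nucleus alone, whereas the other complexes combine subunits of both genomes. The mitochondrial genes are transcribed as long polycistronic RNAs by a dedicated polymerase, while the nuclear genes have separate promoters, many of them bound by factors such as NRF1, GABP and YY1.

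Libraries held from 17893071 to 137152480 counts per tumour, with a median of 40651117. Setd2, the targeted gene, stood at 67.7 ± 12.8 CPM (counts per 1000000 scaled by TMM; SD, n = 3 codes) in Variant 1 Neo and 37.4 ± 2.5 in Variant 1 Setd2, and at 54.6 ± 10.3 in Variant 3 Neo and 45.7 ± 13.2 in Variant 3 Setd2. The codes of the guides did not overlap in Variant 1 (53.5 to 78.5 against 34.5 to 39.0) and overlapped in Variant 3 (45.2 to 65.7 against 33.6 to 59.8). Its log2 fold change was −0.86 in Variant 1 (adjusted p = 0.0825), −0.26 in Variant 3 (adjusted p = 0.647) and −0.56 averaged (adjusted p = 0.0501). All 8 markers of alveolar type 2 cells were detected, with summed levels of 35920 to 189300 CPM per tumour. Markers of club and ciliated cells and of neutrophils were higher with sgSetd2 in both variants. The 6 club and ciliated cell genes summed to 18.6–212 CPM in Variant 1 Neo, 176.5–857 in Variant 1 Setd2, 11.6–27.8 in Variant 3 Neo and 51.7–328 in Variant 3 Setd2. The 5 neutrophil genes summed to 0.394–28.6, 4.78–80.8, 0–2.20 and 8.94–61.5 CPM in the same order, with Csf3r at 0 in all groups but Variant 3 Neo, S100a9 at 0 in both Neo groups and Ly6g at 0 in Variant 1 Neo. The 6 fibroblast genes reached at most 465.5 CPM, the 10 macrophage genes 206.2 CPM, and the 7 T and B cell genes 1.43 CPM. The 5 endothelium genes reached 7.18 CPM and the 5 red cell genes 14.2 CPM. Median log2 fold changes of the fibroblast, endothelium and red cell genes tested differed in sign between the variants. They were −1.08, 2.85 and 2.49 in Variant 1 and 2.59, −0.43 and −5.34 in Variant 3. Those of the macrophage genes were 0.28 and 0.49. The part of these cells in the results below was not tested.

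The nuclear members together took a smaller share of the counts in the sgSetd2 codes of both variants. Their summed share was 1.20%, 1.29% and 1.13% in the 3 codes of Variant 1 Neo and 0.984%, 1.00% and 0.974% in those of Variant 1 Setd2. In Variant 3 it was 1.36%, 1.16% and 1.22% with sgNeo and 1.06%, 1.02% and 1.14% with sgSetd2. The guides did not overlap in either variant. The log2 ratio of the shares was −0.29 in Variant 1 and −0.22 in Variant 3. In sorted bulk cells, fewer cells of a type and less RNA per cell cannot be told apart.

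The 13 mitochondrial members took more of the counts and varied more. Their share was 1.36%, 2.52% and 1.36% in Variant 1 Neo, 1.13%, 1.33% and 1.07% in Variant 1 Setd2, 2.19%, 1.93% and 1.98% in Variant 3 Neo, and 1.31%, 1.28% and 3.45% in Variant 3 Setd2. The guides did not overlap in Variant 1. In Variant 3 they overlapped through code CE456, which held the highest share of all 12 codes and whose 3 tumours stood at 2.78%, 3.05% and 4.62%. The log2 ratio of sgSetd2 to sgNeo was −0.51 in Variant 1 and −0.18 in Variant 3, beside a pooled SD between codes of 0.49. Without CE456 the Variant 3 ratio was −0.65, without CE450 or CE454 it was 0.05 and 0.06, and without CE468, whose tumour 4 held 6.15%, the Variant 1 ratio was −0.21.

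**Figure D1:**
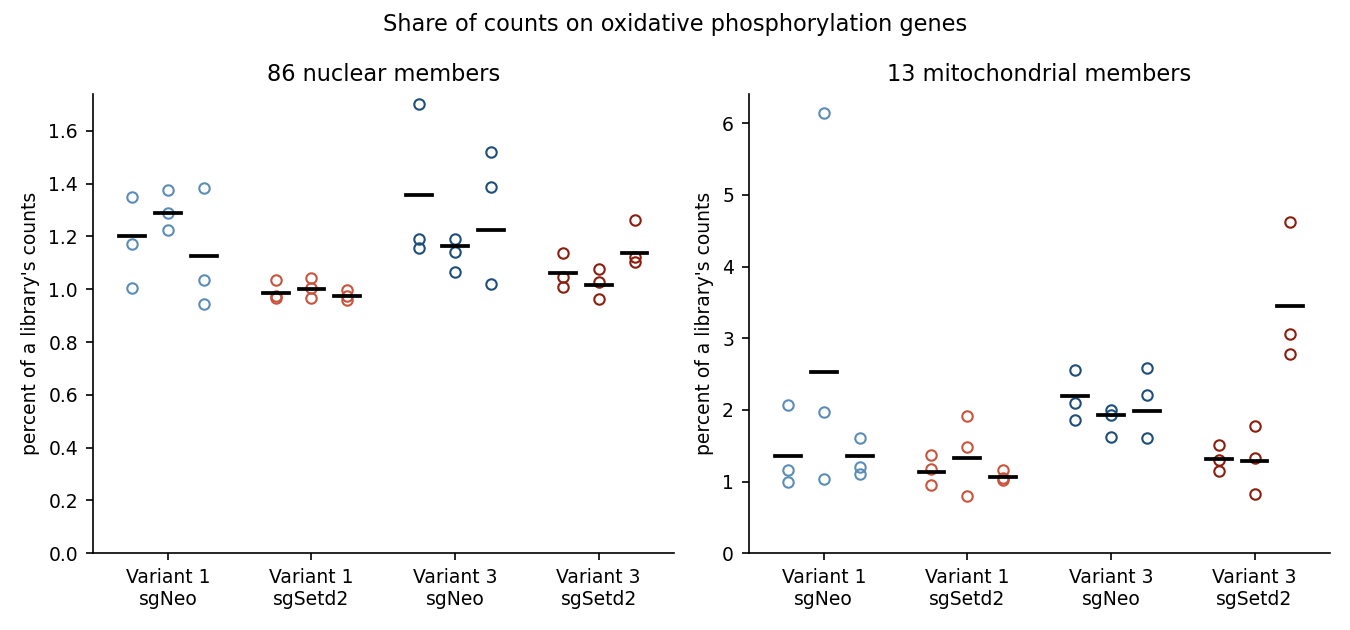
Percent of a library's counts on the 86 nuclear members (left panel) and the 13 mitochondrial members (right panel); circles are tumours, placed by code, and bars are the shares of the summed codes. Nuclear shares of the sgSetd2 codes lie between 0.974% and 1.14% and below every sgNeo code of their variant, while the mitochondrial shares hold 1 tumour of Variant 1 Neo at 6.15% and the raised code CE456 in Variant 3 Setd2.

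The test across genes covered 20009 genes, of which 96 were members (83 nuclear and all 13 mitochondrial). Cox7b2 (0 counts in all libraries), Cox8b (19) and Cox8c (5), isoforms known from testis or muscle, did not pass the filter on low counts. Averaged over both variants, 9 of 83 nuclear members fell with sgSetd2 and 0 rose, while 3.63% of all genes fell and 3.72% rose. Without adjustment, 26 nuclear members were lower and 4 higher at p under 0.05, beside 11.1% and 11.8% of all genes. Of the 83, 73 had a log2 fold change below 0, with a median of −0.13, against 9773 of 20009 and a median of 0.01 over all genes tested. Within Variant 1, 1 nuclear member fell and 0 rose (0.72% and 0.7% of all genes), and 62 of 83 were below 0 with a median of −0.12. With the level of 26 cell cycle genes as a covariate, 49 of 83 were below 0 in Variant 1 with a median of −0.05, near the −0.04 of all genes. Within Variant 3, 0 fell and 0 rose (0.615% and 0.88% of all genes), and 75 of 83 were below 0 with a median of −0.17. With the same covariate, 70 of 83 were below 0 in Variant 3 with a median of −0.16, against 0.03 over all genes. At an unadjusted p under 0.05, 13 were lower and 0 higher in Variant 1 (8.31% and 7.61% of all genes), and 19 were lower and 2 higher in Variant 3 (6.77% and 8.33%). DESeq2 on the same sums tested 85 nuclear members. It called 5 lower in Variant 1, where it called 4.5% of all genes lower and 4.32% higher, and 6 lower and 1 higher in Variant 3, beside 3.01% and 3.88% of all genes. On average it called 15 lower and 2 higher, beside 7.12% and 8.06% of all genes. By direction, 60 of 83 were lower in both variants, 6 higher in both and 17 opposite.

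The number of calls varied with which libraries were in the fit, and libraries high in cell cycle transcripts were among them. A set of 5 tumours, 3 of Variant 1 Neo and 2 of Variant 3 Neo, had a mean log2(CPM + 1) above 5 over 26 cell cycle genes. Without those tumours 0 of 83 nuclear members were called on average, beside 448 genes in all (2.3%, against 7.35% with all tumours). The median of the members was −0.13 as before. With the cell cycle level as a covariate, 0 members and 21 genes in all (0.105%) were called, and the members' median was −0.09. Leaving out a code gave between 2 calls (without CE475) and 10 (without CE456). The count was 3 without CE428, 4 without CE468 or CE483, 5 without CE433 or CE450, and 6 without CE479 or CE454. Leaving out tumour 2 of CE472 gave 3. For fits without a code or tumour the share of all genes called is not given here. These counts therefore cannot be set against it. Cox5a and Cox7a2l were called in all 12 such fits by code, Atp5g2 in 10, Ndufb8 and Ndufc2 in 8, Cox7c in 6, Ndufa9 and Cyc1 in 4 and Atp5c1 in 1.

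**Figure D2:**
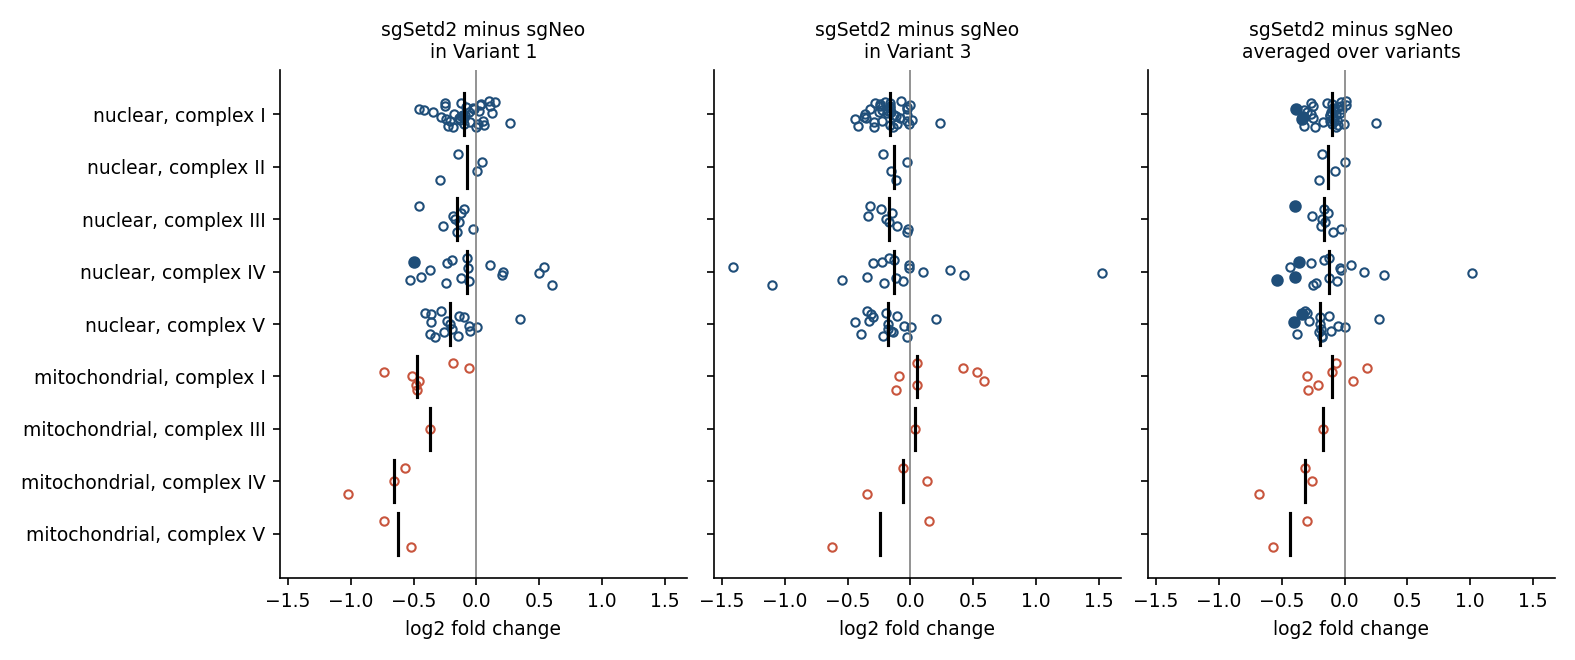
Log2 fold change of sgSetd2 minus sgNeo for each tested member, by genome and complex, in Variant 1, in Variant 3 and averaged; filled points passed an adjusted p of 0.05, open points did not, and black bars are group medians. Nuclear medians lie just left of 0 in every complex and panel, from −0.21 to −0.07, although complex II in Variant 1 has 2 of its 4 points on either side, while mitochondrial points lie left of 0 in Variant 1 and on both sides in Variant 3.

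Complex I, the NADH dehydrogenase, held 3 of the 9 genes that fell. On average 33 of its 36 nuclear genes were below 0, with a median of −0.10. Ndufa9, a subunit near the ubiquinone site, stood at 87.9, 119.7 and 107 CPM in Variant 1 Neo, 76.9, 69.4 and 82.5 in Variant 1 Setd2, 89.9, 91.5 and 106 in Variant 3 Neo and 81.4, 74.6 and 73.7 in Variant 3 Setd2. Every sgSetd2 code lay below every sgNeo code of its variant. Its averaged log2 fold change was −0.39 (SE 0.09, adjusted p = 0.0287), the largest fall of a nuclear complex I gene. Ndufb8, a subunit of the distal membrane arm, had 56.1, 50.5 and 52.3 CPM against 41.4, 43.3 and 45.9 in Variant 1, and 71.0, 59.1 and 64.3 against 49.5, 50.3 and 50.5 in Variant 3. Its guides did not overlap either, and its averaged change was −0.33 (SE 0.07, adjusted p = 0.0218). Ndufc2, of the membrane arm next to the matrix arm, went from 160.2, 176 and 150.1 to 127, 141 and 142 CPM in Variant 1 and from 178, 158 and 172 to 122, 122 and 132 in Variant 3, an averaged change of −0.34 (SE 0.07, adjusted p = 0.0194). Here too the guides were apart in both variants. Ndufab1, the mitochondrial acyl carrier protein that also sits in complex I, missed the threshold at −0.32 (adjusted p = 0.0686). Ndufs5, at 0.25 (adjusted p = 0.144), was the nuclear complex I gene with the highest averaged value.

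Complex II, the succinate dehydrogenase shared with the citrate cycle, had no call in any comparison. Sdha, the flavoprotein, stood at 278, 247 and 339.6 CPM in Variant 1 Neo and 281, 254 and 247 in Variant 1 Setd2, and at 260.1, 277 and 232 against 245, 246 and 169 in Variant 3, with overlap in both. The averaged log2 fold changes were −0.18 for Sdha (adjusted p = 0.401), 0.01 for the iron-sulfur subunit Sdhb (adjusted p = 0.98), −0.08 for the membrane anchor Sdhc (adjusted p = 0.646) and −0.20 for the anchor Sdhd (adjusted p = 0.264). Only Sdhd in Variant 1 had codes apart, 157, 156 and 164 CPM with sgNeo and 134, 123 and 134 with sgSetd2. Of all genes, 12.3% were lower with codes apart in Variant 1 and 8.96% in Variant 3.

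Complex III, the cytochrome bc1 complex, had all 9 nuclear genes below 0 in Variant 1, in Variant 3 and on average (median −0.16). Cyc1, its haem-bearing cytochrome c1, stood at 118, 142 and 149.6 CPM against 106, 95.2 and 98.1 in Variant 1 and at 131, 109.8 and 115 against 94.5, 107 and 82.1 in Variant 3. The sgSetd2 codes were lower without overlap in both variants, and Cyc1 was the complex III gene that fell, with an averaged change of −0.39 (SE 0.09, adjusted p = 0.0303). Uqcrb, a small subunit at the quinone site, was at −0.26 (adjusted p = 0.13), and the Rieske iron-sulfur protein Uqcrfs1 at −0.18 (adjusted p = 0.208).

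Complex IV, cytochrome c oxidase, held 3 genes that fell, and its 17 tested genes had a median of −0.13, with 13 below 0. Cox5a, a core nuclear subunit, stood at 66.8, 74.6 and 64.2 CPM in Variant 1 Neo and 48.7, 46.4 and 51.0 in Variant 1 Setd2, and at 69.1, 66.6 and 66.6 against 61.1, 53.0 and 58.9 in Variant 3. No codes of the guides overlapped. Its averaged change was −0.36 (SE 0.07, adjusted p = 0.0137). It was also the member that fell within Variant 1 (log2 fold change −0.49, SE 0.10, adjusted p = 0.0427), a call kept in 2 of the 12 fits that left out a code and in 4 of 12 other settings. Within Variant 3 its change was −0.23 (adjusted p = 0.324). Cox7a2l, which helps to join complexes III and IV into supercomplexes, went from 64.1, 65.7 and 72.9 to 53.8, 50.8 and 44.7 CPM in Variant 1 and from 74.2, 70.0 and 68.0 to 54.6, 58.8 and 53.6 in Variant 3. It had the smallest adjusted p among the members in the averaged comparison (0.0114), at −0.39 (SE 0.08). Cox7c, a small subunit, had the largest fall of the 9, −0.54 (SE 0.12, adjusted p = 0.0226). Its levels were 182, 207 and 145 CPM against 105, 145 and 119.8 in Variant 1, where the guides met, and 218, 164 and 179 against 119.8, 121 and 144 in Variant 3, where they did not.

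Among the other subunit 7a genes of complex IV the values lay on the other side of 0. Cox7a1, the heart and muscle form, was low throughout: 2.24, 2.92 and 0.876 CPM against 3.36, 1.79 and 3.38 in Variant 1, and 1.45, 1.42 and 1.20 against 3.23, 3.76 and 4.75 in Variant 3. The Variant 3 codes were apart, yet its change of 1.52 (SE 0.45) missed the threshold (adjusted p = 0.132), as did the average of 1.01 (adjusted p = 0.0767). Cox7a2, the common form, stood at 265, 221 and 205 CPM in Variant 3 Neo and 324, 289 and 313 in Variant 3 Setd2. Its averaged value was 0.31 (adjusted p = 0.0963), and DESeq2 called Cox7a1 and Cox7a2 higher on average.

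Complex V, the ATP synthase, held the remaining falls and had 15 of 17 genes below 0, with the lowest median of the complexes (−0.20). Atp5g2, which encodes 1 of the precursors of subunit c, the rotor ring, stood at 34.3, 37.0 and 38.8 CPM in Variant 1 Neo, 28.0, 30.3 and 27.3 in Variant 1 Setd2, 48.4, 38.0 and 38.5 in Variant 3 Neo and 31.4, 30.0 and 30.5 in Variant 3 Setd2. The guides did not overlap, and the averaged change was −0.40 (SE 0.09, adjusted p = 0.0174). Atp5g1, another precursor of the same subunit, was at −0.28 (adjusted p = 0.0752). Atp5c1, the central stalk subunit gamma, went from 223, 261 and 269 to 204, 179.6 and 204 CPM in Variant 1 and from 266, 228 and 236 to 211, 207 and 168 in Variant 3. Its codes were apart in both variants, but its averaged call (−0.34, SE 0.09, adjusted p = 0.0471) held in 1 of the 12 fits without a code. Atp5f1, the stator subunit b, was at 0.27 (adjusted p = 0.169).

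**Figure D3:**
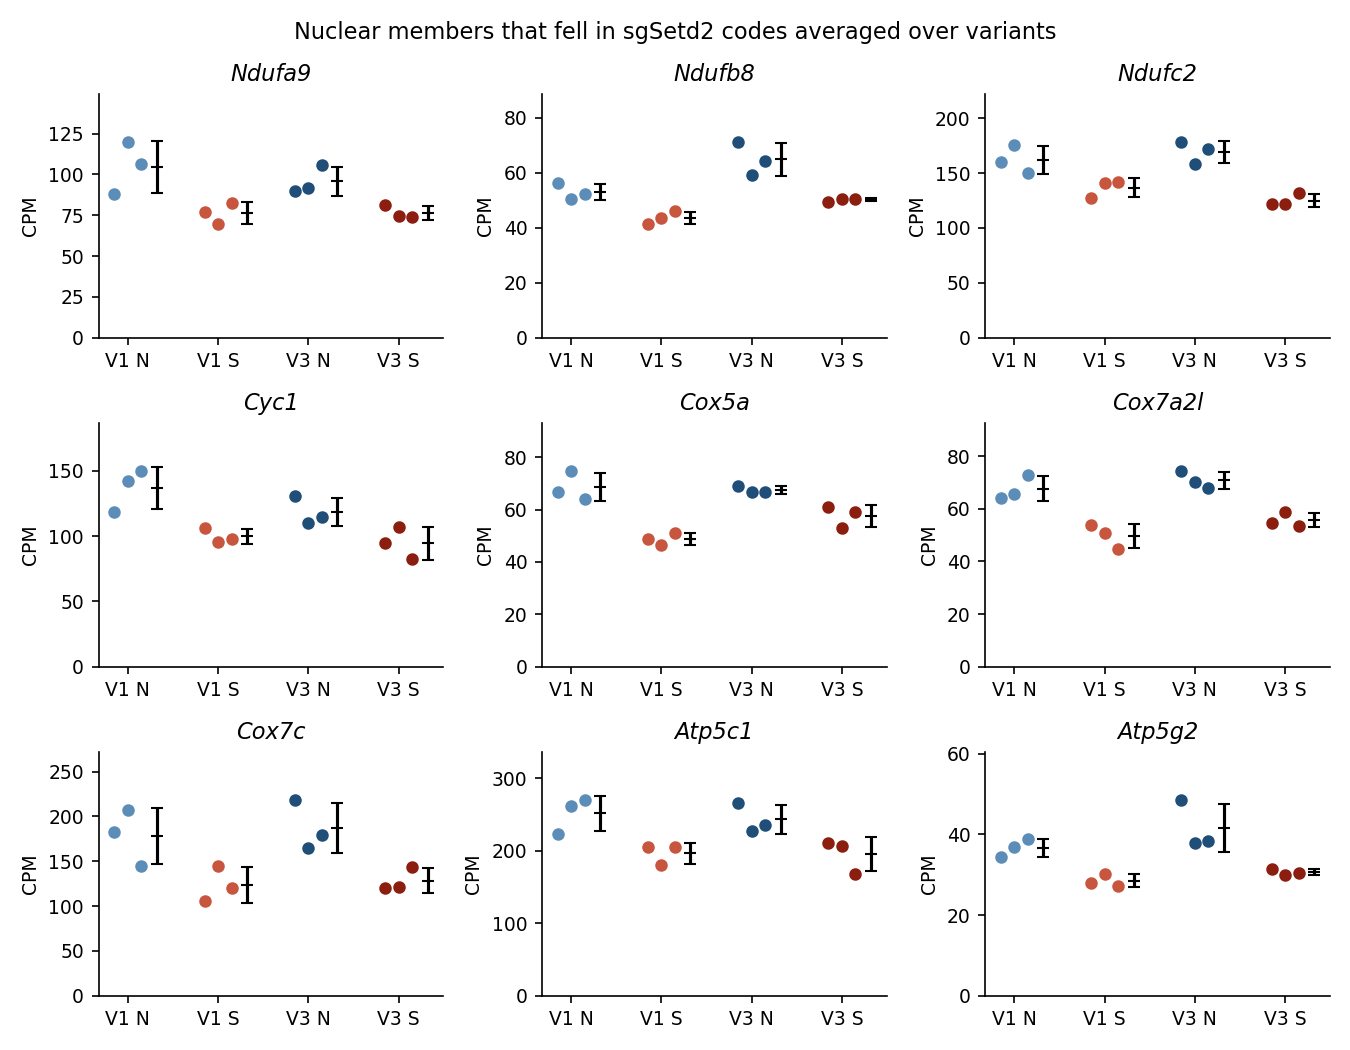
Level in CPM of the 9 nuclear members that fell with sgSetd2 averaged over variants; points are codes (V1 and V3 for the variants, N for sgNeo and S for sgSetd2) and black marks are the mean ± SD of 3 codes. In every panel the sgSetd2 points of a variant sit below its sgNeo points, except for Cox7c in Variant 1.

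In Variant 1, 18 nuclear members were lower without overlap of the codes and 1 was higher, that is, Ndufs5, while 12.3% and 11.7% of all genes were. In Variant 3, 27 were lower and 2 higher, against 8.96% and 10% of all genes. The 2 higher were Cox7a1 and Cox7a2. Some of the genes that fell have processed copies elsewhere that could share reads. The Atp5g2 transcript matched Gm10175 at 100% over 16.9% of its length, and that copy held 9913 counts against 59112. Cox7c matched Gm10012 (1337 against 262936 counts) and Cox7a2l matched Gm6969 (576 against 105711) over 32.9% and 17.8% of their transcripts, at 99.6% and 100% identity.

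The nuclear genes have separate promoters, so 3 of these are shown for the motifs they share. Of the 86 nuclear members, 69 matched a RefSeq promoter window on GRCm38.p6, 250 bases before to 50 after the start of transcription, and both strands were searched for 3 motifs. GCGCANGCG, the NRF1 motif, was found in 20 of them (29.0%) and in 9.63% of the 17492 windows of all genes. ATGGCGGC (YY1) was found in 6 (8.70%, against 3.50%) and CCGGAAGT (ETS factors such as GABP) in 5 (7.25%, against 5.69%). These shares are a description of letters and not of binding. The windows below are those with the most matches among the members named here, printed 5′ to 3′ on the gene's strand with NRF1 matches in capitals. Matches on both strands that overlap were counted singly per strand, and Cox8a, with as many matches as Atp5g2, is not printed. They lie at chr5:115348909-115349208 for Cox6a1, chr13:74350191-74350490 for Sdha and chr15:102670998-102671297 for Atp5g2, all on the minus strand.
Cox6a1: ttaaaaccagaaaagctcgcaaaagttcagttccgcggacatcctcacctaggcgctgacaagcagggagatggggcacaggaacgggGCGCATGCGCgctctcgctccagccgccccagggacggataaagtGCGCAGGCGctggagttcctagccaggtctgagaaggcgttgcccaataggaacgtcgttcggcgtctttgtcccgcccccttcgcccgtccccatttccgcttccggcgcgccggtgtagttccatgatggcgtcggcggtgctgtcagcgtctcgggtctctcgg
Sdha: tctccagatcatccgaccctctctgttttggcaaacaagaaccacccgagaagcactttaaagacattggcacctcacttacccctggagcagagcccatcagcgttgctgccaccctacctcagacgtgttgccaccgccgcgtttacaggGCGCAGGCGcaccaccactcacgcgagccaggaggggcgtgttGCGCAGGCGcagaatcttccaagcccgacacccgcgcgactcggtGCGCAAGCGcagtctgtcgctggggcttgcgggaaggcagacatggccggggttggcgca
Atp5g2: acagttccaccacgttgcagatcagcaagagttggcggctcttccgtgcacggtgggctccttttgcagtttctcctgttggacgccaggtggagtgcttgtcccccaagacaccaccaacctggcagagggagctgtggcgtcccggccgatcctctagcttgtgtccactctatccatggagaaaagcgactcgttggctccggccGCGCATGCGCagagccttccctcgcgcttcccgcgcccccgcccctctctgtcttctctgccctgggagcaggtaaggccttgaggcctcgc
Among these 3 genes Atp5g2 fell with sgSetd2 and Sdha did not pass the test.

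The mitochondrial members differed widely in level among themselves. Per kilobase of transcript, mt-Cytb (cytochrome b of complex III) had the highest level, 4319 CPM, followed by mt-Co1 (the catalytic subunit of complex IV) with 3567 and mt-Nd1 with 2823. The complex I genes mt-Nd6, mt-Nd5, mt-Nd4 and mt-Nd2 lay between 756 and 993 CPM per kilobase. Then came a gap: mt-Co3 and mt-Atp6 had 59.5 and 50.9, mt-Co2 and mt-Nd3 26.5 and 24.7, mt-Atp8 3.70 and mt-Nd4l 1.03. For comparison, the median nuclear member had 66.2 CPM per kilobase of merged exons. That length can exceed the length of 1 transcript, as for Atp5l (6443 bases against a transcript of 544), which lowers the value.

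Of the 6 low mitochondrial genes, 5 have a near-identical copy in the nuclear genome over nearly their whole length. A stretch of chromosome 1 (24.6 Mb on GRCm38) carries annotated copies of mt-Nd3, mt-Nd4l, mt-Co2, mt-Co3 and mt-Atp6 over at least 99% of their transcripts, of mt-Nd4 over 63.6% and of mt-Co1 over 31.3%. No annotated copy on chromosome 1 was found for mt-Nd1, mt-Nd2, mt-Nd5, mt-Nd6 and mt-Cytb, and each of these stood above 750 CPM per kilobase. mt-Atp8 matched over 21.1%, the 43 bases it shares with mt-Atp6; the genome around the copies was not used here. The copies drew counts of their own: Gm28437, the copy of mt-Co3, held 396483 counts against 84610 for the gene, a ratio of 4.69. The ratio was 1.35 for Gm10925 and mt-Atp6, 1.19 for Gm10222 and mt-Nd4l, 1.09 for Gm28661 and mt-Co2, and 0.397 for Gm28438 and mt-Nd3. How reads that fit both places were counted is not stated in these sources, so the levels of these genes are uncertain. The library kit does not mark strand, so for mt-Nd6, on the other strand from the other 12, reads of the opposite strand cannot be told apart.

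The closeness of gene and copy is shown for 2 pairs, with the differing base in capitals. The first bases of mt-Nd3 and of its copy Gm28438 (chr1:24612775-24613119, minus strand) differ in these 60 bases by T3C, counted from the first base of the mt-Nd3 transcript.
mt-Nd3: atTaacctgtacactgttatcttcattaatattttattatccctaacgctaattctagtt
Gm28438: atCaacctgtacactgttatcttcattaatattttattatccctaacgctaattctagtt
Bases 1063 to 1122 of mt-Co1 and the matching part of Gm29216 (chr1:24615706-24616197, minus strand) differ by A1066T, counted from the first base of the mt-Co1 transcript.
mt-Co1: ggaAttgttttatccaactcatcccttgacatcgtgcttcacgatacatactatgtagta
Gm29216: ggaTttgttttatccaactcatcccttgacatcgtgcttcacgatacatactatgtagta
mt-Co1 also matched Gm13340 on chromosome 2 at 97.6% over its whole length, and that copy held 8747 counts against 9997955.

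**Figure D4:**
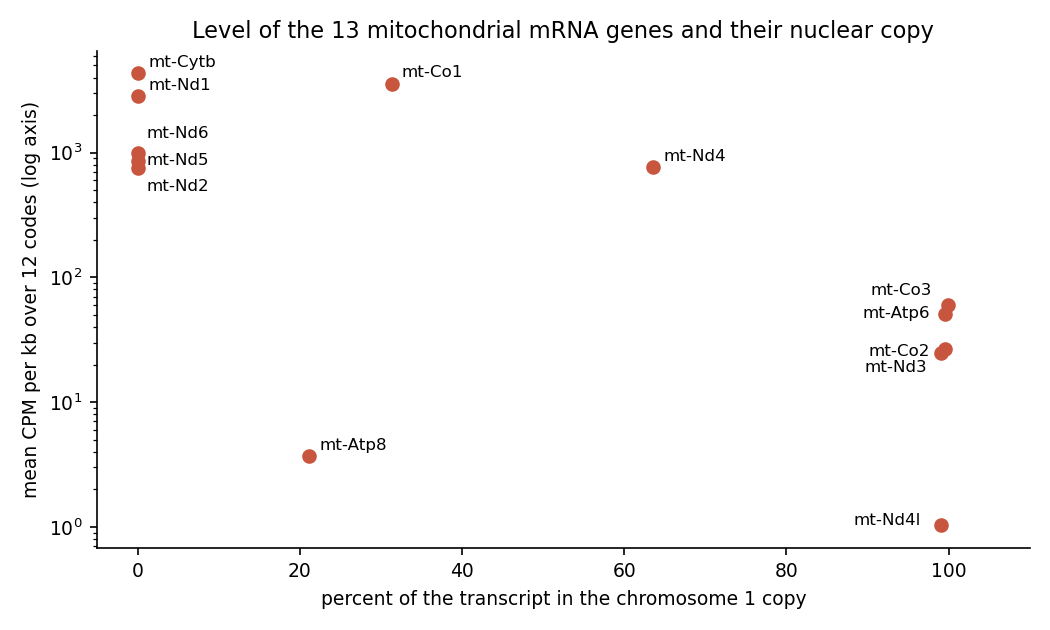
Mean level over 12 codes of each mitochondrial member (CPM per kilobase, log axis) against the percent of its transcript found in an annotated chromosome 1 copy. The 5 genes at 0% lie above 750 CPM per kilobase, and the 5 genes at 99% or more lie between 1.03 and 59.5.

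No mitochondrial member was called in any of the 6 comparisons by edgeR, by DESeq2, by limma or with the 36 tumours taken singly. At an unadjusted p under 0.05 there was 1 in Variant 1 (mt-Co3, lower), 0 in Variant 3 and 0 on average. Of all genes, 8.31% were lower in Variant 1, 6.77% in Variant 3 and 11.1% on average, and 7.61%, 8.33% and 11.8% were higher. In Variant 1 all 13 were below 0 with sgSetd2, with a median of −0.51. For the members with no copy on chromosome 1, the log2 ratio of the summed share was −0.43 in Variant 1 and −0.12 in Variant 3. For all 13 it was −0.51 and −0.18. mt-Co1 stood at 3981, 7815 and 4219 CPM in Variant 1 Neo and 3542, 4219 and 3071 in Variant 1 Setd2, and at 7214, 6492 and 6351 against 4337, 4222 and 10673 in Variant 3. The middle code of Variant 1 Neo (CE468) and the last of Variant 3 Setd2 (CE456) were the high ones in their groups. mt-Cytb, which has no copy on chromosome 1, was high in the same codes, and its guides overlapped in both variants. It stood at 3674, 6485 and 3813 CPM against 3386, 3732 and 3696, and 6048, 5713 and 5299 against 4107, 4143 and 9196. Its log2 fold changes were −0.37 in Variant 1 (SE 0.31, adjusted p = 0.632) and 0.03 in Variant 3 (SE 0.31, adjusted p = 0.978).

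The other mitochondrial genes differed in the size of their change, and in Variant 3 also in its sign. In Variant 1 the complex I genes read −0.19 for mt-Nd1, −0.06 for mt-Nd2, −0.73 for mt-Nd3, −0.51 for mt-Nd4, −0.45 for mt-Nd4l, −0.48 for mt-Nd5 and −0.47 for mt-Nd6. The complex IV genes read −0.56 for mt-Co1, −0.65 for mt-Co2 and −1.02 for mt-Co3, and the complex V genes −0.73 for mt-Atp6 and −0.52 for mt-Atp8. Only mt-Nd4 had codes apart, beside 12.3% of all genes lower and apart and 11.7% higher. The genes with no copy on chromosome 1, mt-Cytb among them, lay between −0.48 and −0.06. In Variant 3 the median was 0.05, and it turned to −0.11 with limma and −0.09 with the sex covariate. Sex is not labelled, and that covariate marked codes with the Y-chromosome gene Ddx3y above 50 CPM. Of the 13 genes, 8 were above 0 and 5 below. They ran from −0.62 for mt-Atp8 and −0.34 for mt-Co3, through −0.12 for mt-Nd6, −0.09 for mt-Nd4, −0.06 for mt-Co1, 0.05 for mt-Nd1, 0.05 for mt-Nd5, 0.13 for mt-Co2 and 0.14 for mt-Atp6, to 0.42 for mt-Nd2, 0.53 for mt-Nd3 and 0.59 for mt-Nd4l. Without code CE456 the Variant 3 median was −0.61, and mt-Nd4 was then called on average (−0.58, adjusted p = 0.0471). Without CE468 the Variant 1 median was −0.18.

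The genomes differed in how far codes of 1 group spread. The SD of log2-CPM between codes within groups had a median of 0.16 over the 83 nuclear members and 0.48 over the 13 mitochondrial members (0.40 for mt-Nd1 to 0.74 for mt-Nd4l). It was 0.46 over all 20009 genes and 0.21 over 4211 genes in the same range of level as the nuclear members. Across the 12 codes the mean nuclear log2 level and the log2 of the mitochondrial share went together. Pearson r was 0.781 and Spearman rho 0.874, and r was 0.737 without the 2 codes farthest on the nuclear level. Taken as deviations from the group means, r was 0.797 and rho 0.769, and r was 0.608 without the 2 farthest codes. These points share library, depth and cell make-up, so the values are descriptions with no test. The cell cycle level went with the nuclear level at r = 0.69 over codes, and at 0.337 as deviations from group means, which became 0.0325 without the 2 farthest codes.

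**Figure D5:**
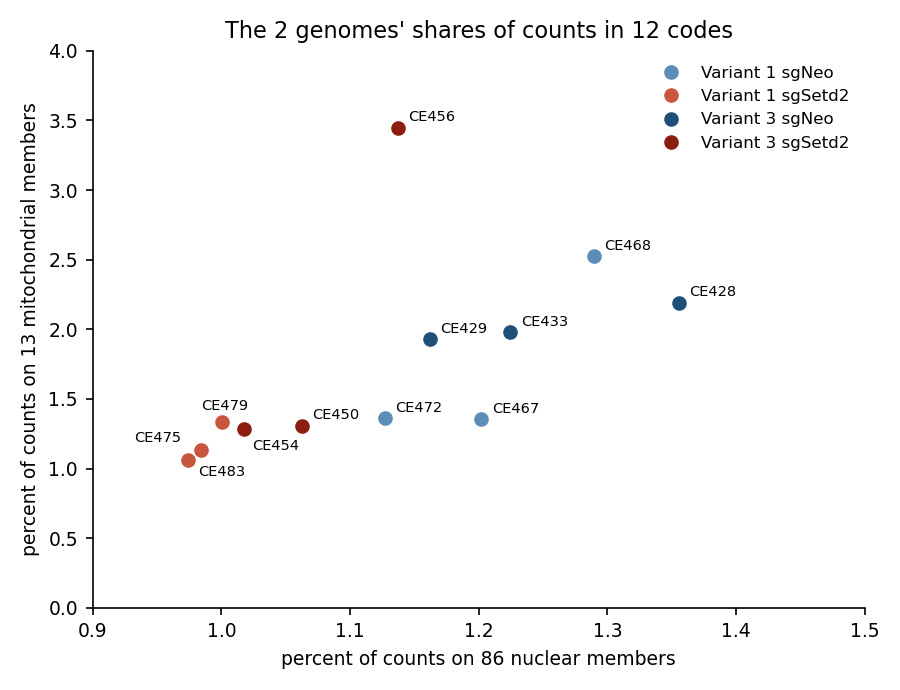
Percent of counts on the 13 mitochondrial members against percent on the 86 nuclear members in 12 codes, coloured by group and named by code. Codes with more nuclear counts tend to hold more mitochondrial counts, and CE456 lies above the others at 3.45%. The r of 0.781 is of the mean nuclear log2 level with the log2 mitochondrial share, not of the plotted shares.

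Between the variants, 1 nuclear member was called, and the direction of the mitochondrial members in the sgNeo codes changed with the libraries used. In the sgNeo codes, 0 members were called, against 0% of all genes higher and 0.005% lower, and 67 of 83 nuclear members were above 0 with a median of 0.14. At an unadjusted p under 0.05, 6 nuclear members were higher and 1 lower, beside 4.06% and 6.33% of all genes. DESeq2 called 3 higher and 1 lower, beside 1.02% and 1.6% of all genes. Without the 5 tumours high in cell cycle genes the nuclear median was 0.02. The nuclear codes were apart for 12 members that were higher and 3 lower, with 6.83% and 8.21% of all genes. In the sgSetd2 codes 62 of 83 nuclear members were above 0 with a median of 0.12. There 29 were higher without overlap and 3 lower, with 8.62% and 8.06% of all genes. The 2 variant comparisons share no codes.

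Cox6a2 was the member that changed between the variants. It encodes the heart and muscle form of subunit 6a of complex IV. It stood at 11.0, 8.67 and 9.89 CPM in Variant 1 Neo, 8.33, 9.91 and 24.8 in Variant 1 Setd2, 2.32, 3.70 and 0.693 in Variant 3 Neo and 0.549, 1.03 and 0.933 in Variant 3 Setd2. Every Variant 3 code lay below every Variant 1 code. In the sgSetd2 codes it was lower in Variant 3 by a log2 difference of −4.09 (SE 0.62, adjusted p = 0.0285), 1 of the 0.125% of genes that were lower there, against 0.005% that were higher. In the sgNeo codes its difference was −2.14 (SE 0.57, adjusted p = 0.292). The call held in 5 of 12 fits without a code. It was lost with only the compared groups in the fit and with the cell cycle level as a covariate. Single tumours ranged from 0.371 to 32.4 CPM in Variant 1 Neo, so the codes there average unlike tumours. The common form Cox6a1 had 313 CPM per kilobase against 10.02 for Cox6a2.

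All 13 mitochondrial members were above 0 in Variant 3 minus Variant 1 of the sgSetd2 codes, with a median of 0.69 and none called. At an unadjusted p under 0.05, 5 were higher and 0 lower, beside 4.51% and 5.18% of all genes: mt-Co3 (1.27), mt-Nd3 (1.15), mt-Co2 (0.98), mt-Co1 (0.83) and mt-Cytb (0.69). The codes were apart for 6 of the 13, all higher in Variant 3, beside 8.62% of all genes higher and apart and 8.06% lower. The median was 0.10 without CE456. In the sgNeo codes 10 of 13 were above 0, with a median of 0.19. None of the 13 had codes apart there, beside 6.83% of all genes higher and 8.21% lower. Without the 5 tumours high in cell cycle genes 12 of 13 were below 0 there, with a median of −0.27, and with the cell cycle covariate 7 of 13 were below 0, with a median of −0.01. The test of whether the guide acts differently in the variants, the interaction, called 0 members and 0% of all genes in each direction; at an unadjusted p under 0.05 it gave 1 nuclear member (Cox6a2, −1.96) and 0 mitochondrial members, beside 3.46% of all genes higher and 2.53% lower. The mitochondrial median of the interaction was 0.50, and −0.04 without CE456.

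Isoform levels showed which forms these cells used. Cox4i1 had 180.2 CPM per kilobase and Cox4i2, a form known from lung and low oxygen, 11.7. Cox6b1 had 309.7 and the testis form Cox6b2 4.53, Cox7a2 had 256, Cox7a2l 41.2 and Cox7a1 4.73, and Cox7b had 119. Cox8a had 318 against 0.0277 for the muscle form Cox8b, and Ndufa4 had 191 against 0.179 for Ndufa4l2. The common form led in each of these sets. Of the precursors of subunit c, Atp5g3 had 127, Atp5g1 21.5 and Atp5g2 20.5 CPM per kilobase. Their merged exons span 2181, 4912 and 1675 bases, and these values depend on that length. Before division by length, their mean levels in Variant 1 Neo were 284, 109.9 and 36.7 CPM.

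Other mitochondrial genes were counted the same way for the averaged guide comparison. Of 77 mitochondrial ribosomal protein genes, which translate the 13 mitochondrial mRNAs, 7 fell and 0 rose, with a median of −0.18, beside 3.63% of all genes that fell and 3.72% that rose. Mrpl13 led them at −0.62 (adjusted p = 0.00197) and also fell within each variant, by 0.69 in Variant 1 (adjusted p = 0.0245) and 0.55 in Variant 3 (adjusted p = 0.0489) on the log2 scale. Of 47 assembly factors 4 fell and 1 rose (median −0.12). The falls were Sdhaf3 (−0.80), which helps to build complex II, Coa3 (−0.36) and Cox16 (−0.82), which act in complex IV assembly, and Ndufaf5 (−0.73), a complex I factor. Ttc19, a complex III factor, rose by 0.43. Of 14 citrate cycle genes 4 fell (median −0.23): the isocitrate dehydrogenase subunits Idh3b (−0.66) and Idh3g (−0.44), Mdh2 (−0.37) and Dlst (−0.53).

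Genes that act directly on mitochondrial RNA and DNA were counted in the same comparison, beside the same 3.63% of all genes that fell. Of 19 RNA processing genes 2 fell (median −0.12): Hsd17b10, a subunit of the RNase P that cuts tRNAs from the long transcripts (−0.55, adjusted p = 0.00555), and Fastkd1 (−0.56, adjusted p = 0.0395). Of 17 genes of mitochondrial DNA transcription and replication 0 were called (median −0.15). At an unadjusted p under 0.05, 2 of the 17 were lower and 1 higher, beside 11.1% and 11.8% of all genes. Of 12 nuclear regulators tested, among them Nrf1, Gabpa and Ppargc1a, 0 were called (median −0.11). At an unadjusted p under 0.05, 2 regulators were lower, beside the same 11.1% of all genes. The lowest p among the 12 regulators belonged to Myc, at −1.38 (SE 0.43, adjusted p = 0.076). Of 16 genes of electron carriers and uncoupling, Coq2, an enzyme of ubiquinone synthesis, fell by 0.35. Of the 26 cell cycle genes 5 fell (Mcm7, Ccna2, Aurkb, Cdk1 and Bub1; median −0.81), and their median was −1.44 in Variant 1 and −0.20 in Variant 3. The summed cell cycle level ran from 227 to 1600 CPM in Variant 1 Neo, 211 to 489 in Variant 1 Setd2, 311 to 1229 in Variant 3 Neo and 356 to 840.1 in Variant 3 Setd2.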

How the data were processed

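Raw counts of reads for each Ensembl gene in 36 tumours were deposited by the authors. The RNA of sorted cells was turned into paired-end libraries by SMART-Seq mRNA chemistry, per the labels' protocols. Per the submitters' processing notes, STAR 2.5.3a, R 4.2 and DESeq2 1.38.3 were used. Not given in the sources used here are the counter, its treatment of multiply mapped reads, the genome build and its gene models. Of 49585 IDs, 49326 matched GENCODE mouse release 21 (GRCm38) and 259 did not, and coordinates are those of that release. No pair of libraries was identical, and each column matched a sample. No sequencing batch or date is labelled.

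Groups came from the labels. Counts were summed over the 3 tumours of a code, and edgeR 4.0.16 (under R 4.3.3) was fitted to all 12 codes (filterByExpr with the groups, TMM scaling, robust glmQLFit and glmQLFTest), with p-values adjusted by Benjamini-Hochberg over 20009 genes at 0.05. An SE was taken from the size of the log2 fold change over the root of its F value. The 6 comparisons were sgSetd2 minus sgNeo in each variant and averaged, Variant 3 minus Variant 1 for each guide, and the interaction. Levels are TMM-scaled CPM, per kilobase of merged exons where genes are compared. Shares are percentages of all counts, and tests planned for shares and correlations are given as descriptions. Copies were found with BLAST 2.17.0 among annotated transcripts. On simulated counts with 100 genes changed 1.3-fold and 100 changed 2-fold among 19276, the averaged comparison found 3% and 92%, with 6 false calls, and Variant 1 found 0% and 53%.

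Named were all 13 mitochondrial members, every member called, the members of smallest p in each complex, complex II and the isoform sets. The members, lists and tests were chosen with earlier results of these data known. Alternatives were other scalings and filters, DESeq2 1.42.0, limma 3.58.1, single tumours, fewer groups, cell cycle and sex covariates, and each code or tumour left out. Sex was not labelled and was taken from Ddx3y above 50 CPM in a code. Added after seeing the data were fits without the tumours high in cell cycle genes, and shares without tumour 4 of CE468 or without genes with a chromosome 1 copy.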

Additional observations from a re-analysis of the deposited data

Results flagged for a closer look

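One tumour stood apart from its group in the share of counts on the 13 mitochondrial genes. Tumour 4 of CE468 in Variant 1 Neo held 6.15%, and the next of the 9 tumours held 2.07%. The gap was 0.792 of the group's range, above Dixon's critical value of 0.493 for 9 samples. It was the only value past that limit among 8 groups of tumours screened (the nuclear and the mitochondrial share in each of the 4 groups), and chance alone passes it in about 1 of 20 groups. The tumour's nuclear share, 1.38%, lay within the range of its group. Its mean nuclear log2 level, 6.70, was the highest of the 9, with 6.54 next.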

How the results depend on the processing

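No member called in a comparison changed direction. Medians over the mitochondrial members did. The sgNeo median of Variant 3 minus Variant 1 went from 0.19 to −0.27 without the tumours high in cell cycle genes and to −0.01 with the cell cycle covariate. The Variant 3 guide median went from 0.05 to −0.11 with limma, −0.09 with the sex covariate, −0.01 with the cell cycle covariate and −0.61 without CE456. The interaction median went from 0.50 to −0.04 without CE456. Among nuclear medians only that of the interaction, −0.03, turned sign, to 0.05 without the tumours high in cell cycle genes and to as much as 0.06 with a code left out. The averaged count of 9 nuclear members, all lower, became 17 with DESeq2 (15 lower and 2 higher, beside 7.12% and 8.06% of all genes). It became 26 with the 36 tumours taken singly (23 lower and 3 higher, beside 8.37% and 8.21% of all genes). The count was 0 with the cell cycle covariate, beside 0.105% of all genes, and 0 without the tumours high in cell cycle genes, beside 2.3%. The count ran from 2 to 10 with a code left out and from 3 to 12 with a tumour left out. For such fits, here and below, the share of all genes called is not given. The count was 7 to 11 under the other scalings and filters, with limma and with the sex covariate. Beside it, from 3.58% (no filter) to 14.4% (stricter filter) of all genes were called in either direction. The Variant 1 count of 1 became 5 with DESeq2, all lower, beside 4.5% of all genes lower and 4.32% higher. With single tumours it became 7, all lower, beside 2.15% and 2% of all genes. It was 0 with RLE or upper-quartile scaling, no filter, limma, only the compared groups, either covariate, or without the tumours high in cell cycle genes. With a code left out it was 0 to 1 and with a tumour left out 0 to 2. The Variant 3 count of 0 became 7 with DESeq2 (6 lower and 1 higher, beside 3.01% and 3.88% of all genes). With single tumours it became 15 (13 lower and 2 higher, beside 3.78% and 4.57% of all genes). Between variants, the sgNeo count became 4 with DESeq2 (3 higher and 1 lower, beside 1.02% and 1.6% of all genes). The sgSetd2 count of 1 became 3 with single tumours (2 higher and 1 lower, beside 1.23% and 1.71% of all genes). It was 0 with only the compared groups or the cell cycle covariate, and ran from 0 to 1 with a code or tumour left out. The mitochondrial count stayed 0 in all 6 comparisons except for 1 on average without CE456. The causes were not tested. No paired analysis was possible because the codes of different groups carry no shared number. In simulated data a 2-fold change was found far more often than a 1.3-fold change. Most changes here are of the smaller size, so a member without a call may still differ. The simulation changed 200 genes, while 1471 were called in the averaged comparison, so the percentages it found need not hold for these data.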

Other observations

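The mitochondrial ribosomal RNAs, which belong to no complex, were also counted. Their share per tumour ran from 0.287% to 2.05% in Variant 1 Neo, from 0.217% to 0.615% in Variant 1 Setd2, from 0.317% to 0.624% in Variant 3 Neo and from 0.195% to 1.35% in Variant 3 Setd2. The highest value came from tumour 4 of CE468, the tumour with the highest share on the mitochondrial mRNA genes.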
